A study of Mus musculus with 8 samples.

Results

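Single-cell liver clones are the CD8 T cells of the liver whose T cell receptor was seen in exactly 1 cell of their library. A clone was defined by the V segment, CDR3 nucleotide sequence and J segment of both chains, taking the productive TRB (beta) and TRA (alpha) contig with the most unique molecular identifiers (UMIs) in each barcode. CDR3 is the hypervariable loop at the V to J junction. Cells were kept from 500 UMIs and 300 genes upward if less than 10% of their UMIs were mitochondrial. This gave 1930 cells of wild-type (WT) liver and 883 cells of EomesTG liver, 2813 of the 18732 cells of the series that passed the same RNA filters.

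The series compared CD8 T cells of spleen and liver between WT C57BL/6 mice and mice homozygous for an Eomes transgene (EomesTG), and asked how a gain of Eomes in T cells bears on their transcription and clonal expansion. No treatment is named and the age of the mice is not stated in the labels. The sources used here do not name the promoter that drives the transgene, and the counts of Eomes hold transcripts of the transgene and of the endogenous gene together. Each genotype was a pool of 3 mice, made before the sort, and each organ of a pool gave 1 RNA library and 1 receptor library. No difference could therefore be tested against the spread between mice, no p-value is given, and each interval below is a 95% interval of counting error only.

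A T cell receives its receptor by joining V, D and J segments at random during thymic development, and its daughters inherit it. A receptor seen in many cells marks a clone that has divided, whereas recirculating naive CD8 T cells, which are most of the repertoire of lymphoid organs, are almost all different from each other. A receptor seen once can belong to a naive cell or to an antigen-experienced cell whose relatives were not captured. Eomes is a transcription factor of the T-box family that memory CD8 T cells and NK cells depend on, Pdcd1 encodes the inhibitory receptor PD-1, and Cxcr6 encodes a chemokine receptor that keeps T cells in the liver sinusoids.

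Single-cell clones made up most of the WT liver and a minority of the EomesTG liver. Of 2407 WT barcodes with both chains, 1943 (80.7%, Clopper-Pearson interval 79.1 to 82.3) were the only cell of their clone. Of 3259 EomesTG barcodes, 887 (27.2%, 25.7 to 28.8) were. The intervals did not overlap. If only 2407 EomesTG barcodes had been drawn, 682 (28.3%) would be expected to be single-cell clones, so the gap was of about the same size at equal numbers of barcodes. In the spleen libraries of the same pools the shares were 95.8% in WT and 96.7% in EomesTG. The RNA filters left out 13 WT and 4 EomesTG liver cells of single-cell clones.

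**Figure D1:**
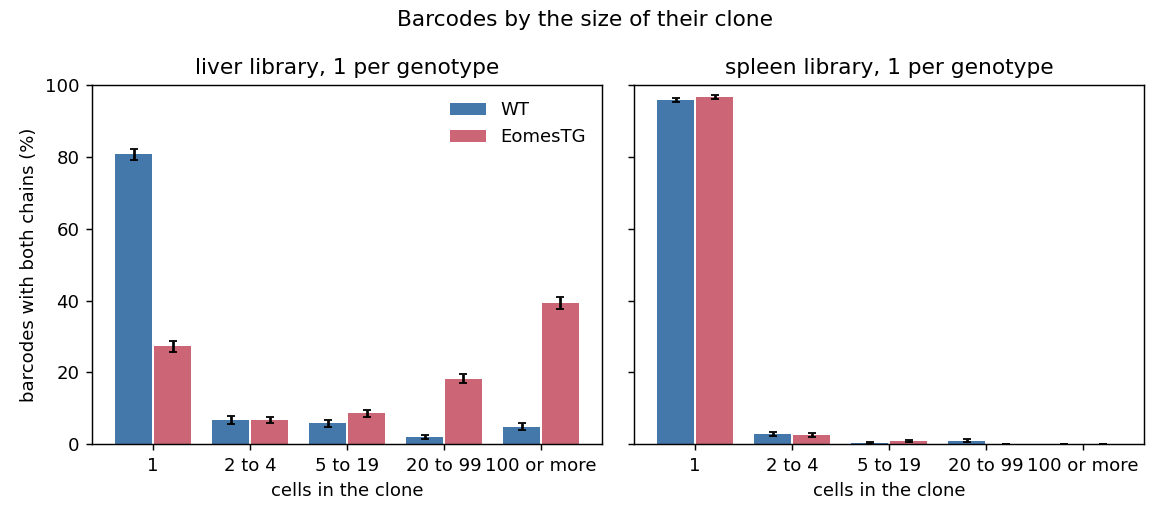
Barcodes with both receptor chains (%, y axis) by the number of cells of their clone (x axis) in the liver (left) and spleen (right) libraries, 1 library per genotype, with 95% Clopper-Pearson intervals as error bars. Clones of 100 or more cells held 4.86% of WT and 39.2% of EomesTG liver barcodes, and the single-cell class was 80.7% against 27.2%.

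The other liver barcodes belonged to 85 WT and 141 EomesTG clones of 2 or more cells, which held 464 and 2372 barcodes. Clones of 2 to 4 cells held 6.69% of WT and 6.75% of EomesTG barcodes, so the gap lay in the larger clones. Of the 1930 WT members 29 (1.503%) had their receptor in the WT spleen as well, and of the 883 EomesTG members 11 (1.25%, interval 0.623 to 2.22) had it in the EomesTG spleen. Larger liver clones were found in spleen more often, 34 of 85 (40.0%) in WT and 17 of 141 (12.1%) in EomesTG. No receptor with both chains was shared between the genotypes. Pairs of libraries shared 23 to 59 RNA barcodes, and in 0 of them did a shared barcode carry the same clone.

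Some single-cell clones carried a chain that was not theirs alone. The TRB chain was seen in another barcode of the library in 44 WT members (2.28%, interval 1.66 to 3.05) and in 49 EomesTG members (5.55%, 4.13 to 7.27). The TRB of a clone of 10 or more cells was found in 0 WT and 11 EomesTG members. The TRA chain was shared in 102 WT (5.28%) and 29 EomesTG (3.28%) members. The CDR3 sequences that follow are the nucleotide sequences of the contig tables, 5′ to 3′, and show how a single-cell clone can be tied to another cell by 1 chain. Capitals mark the stretch of a TRA CDR3 that lies between the start and the end it shares with the TRA set beside it, and sequences with no capitals are identical to their partner or have none.

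The 1 TRB chain found among single-cell clones of both genotypes joined TRBV26 to TRBJ2-1, and the TRA chains of the 2 cells differed from each other beyond the first bases.
TRB of both cells: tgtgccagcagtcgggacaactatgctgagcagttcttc
TRA of the WT cell, TRAV13-1 with TRAJ38: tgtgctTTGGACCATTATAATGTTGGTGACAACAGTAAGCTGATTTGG
TRA of the EomesTG cell, TRAV16 with TRAJ49: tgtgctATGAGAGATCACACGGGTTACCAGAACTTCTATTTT

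In the EomesTG liver, a clone of 104 cells used TRBV15 with TRBJ2-7, and 1 single-cell clone had the same TRB and the same TRA CDR3. It was counted as a clone of its own because its V segment was named TRAV9-1 and not TRAV9N-4.
TRB of the clone and of the single cell: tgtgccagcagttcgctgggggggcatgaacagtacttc
TRA of the clone, TRAV9N-4 with TRAJ22: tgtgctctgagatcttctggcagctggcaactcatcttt
TRA of the single cell, TRAV9-1 with TRAJ22: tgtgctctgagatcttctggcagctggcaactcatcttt

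A clone of 37 cells (TRBV13-3 with TRBJ2-5) showed the same picture, with TRAV7-5 in the clone and TRAV11 in the single cell over 1 TRA CDR3.
TRB of the clone and of the single cell: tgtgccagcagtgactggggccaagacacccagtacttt
TRA of both, with TRAJ34: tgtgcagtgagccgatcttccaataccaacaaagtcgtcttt

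A clone of 32 cells (TRBV16 with TRBJ1-1) shared its TRB with 2 single cells, which both used TRAV4-3 but had different TRA chains.
TRB of the clone and of both single cells: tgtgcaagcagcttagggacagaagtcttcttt
TRA of the clone, TRAV13-4-DV7 with TRAJ39: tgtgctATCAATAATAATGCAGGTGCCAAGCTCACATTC
TRA of the first single cell, TRAV4-3 with TRAJ28: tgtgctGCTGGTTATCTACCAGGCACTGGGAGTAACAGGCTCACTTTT
TRA of the other single cell, TRAV4-3 with TRAJ45: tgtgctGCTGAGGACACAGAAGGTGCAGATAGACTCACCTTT

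A clone of 29 cells (TRBV13-1 with TRBJ2-1) shared its TRB with 1 single cell that held the clone's TRA as a second contig.
TRB of the clone and of the single cell: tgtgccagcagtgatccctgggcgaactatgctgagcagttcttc
TRA of the clone, TRAV7-5 with TRAJ49: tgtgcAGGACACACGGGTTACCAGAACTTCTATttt
TRA of the single cell, TRAV12-2 with TRAJ43: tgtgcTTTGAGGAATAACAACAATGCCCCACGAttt

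Counted over all clones of 2 or more cells, 5 WT and 17 EomesTG members had the TRB of such a clone, and 2 and 7 of them held its TRA as a second contig. In 5 WT and 4 EomesTG members both CDR3 sequences were those of another barcode and only a V or J name differed. A barcode with 2 productive TRB chains can hold 2 cells: there were 152 in the WT members (7.88%) and 52 in the EomesTG members (5.89%).

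The TRB segments of single-cell clones had overlapping intervals in the 2 genotypes with 1 exception, whereas several TRA segments lay apart. None of 12 TRBJ segments and 1 of 22 TRBV names (TRBV10, 3.94% of WT and 1.93% of EomesTG members) had intervals that lay apart. TRBJ2-7 was the leading TRBJ in both, with 22.2% and 23.8%. The 2 TRB repertoires also had like CDR3 lengths, with means of 41.7 ± 4.26 bases in WT and 41.5 ± 4.19 in EomesTG (SD over clones).

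Among TRAJ segments 8 of 43 had intervals apart. TRAJ segments lie in a row before the constant gene Trac, and those with the highest numbers are the farthest from it and the nearest to the TRAV segments. TRAJ segments numbered over 30 were used by 47.5% of WT members (interval 45.2 to 49.7) and by 71.1% of EomesTG members (68.0 to 74.1). This split by number was chosen after the values were seen. Of the 22 TRAJ segments over 30, 21 had a higher share in EomesTG, and of the 21 segments up to 30, 2 did. TRAJ40, 42.5 kb before Trac, was used by 2.07% of WT and 5.89% of EomesTG members. TRAJ12, 13.9 kb before Trac, was used by 2.64% and 0.566%, and TRAJ26 by 4.72% and 2.49%. TRAJ6 was found in 20 WT members and in none of the EomesTG members, and a count of 0 allows a share of up to 0.340%.

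**Figure D2:**
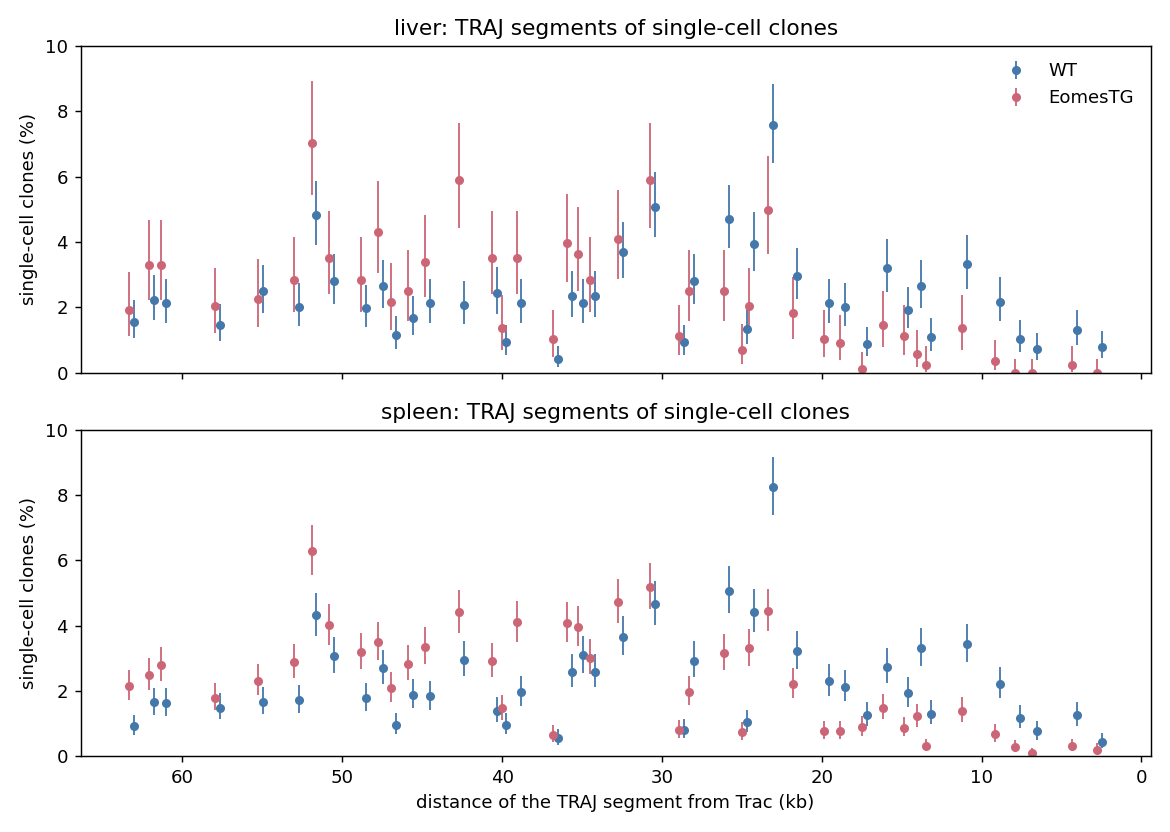
Share of single-cell clones (%, y axis) that used each TRAJ segment, by the distance of the segment from Trac (kb, x axis, largest at the left), in liver (top) and spleen (bottom), with 95% Clopper-Pearson intervals. Blue points are WT and red points EomesTG, drawn slightly apart. Segments near Trac, such as TRAJ12, lay lower in EomesTG, and TRAJ40 and TRAJ49 higher.

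The spleen held the same difference, with TRAJ numbers over 30 in 45.3% of WT and 68.9% of EomesTG single-cell clones. Liver clones of 2 or more cells gave 47.1% (40 of 85 clones) and 78.0% (110 of 141). The TRAV segments of EomesTG members lay nearer to Trac, and so to the TRAJ segments. The median distance of the TRAV segment from Trac was 777 kb in WT members and 666 kb in EomesTG members. TRAV names with a D or N, which mark the duplicated and farther copies, made up 45.6% (43.4 to 47.9) and 28.8% (25.8 to 31.9). These copies are nearly identical, so a name can be assigned to the wrong copy. TRAV6-7-DV9 was used by 1.14% of WT and 4.53% of EomesTG members, and TRAV9D-3 by 4.15% and 1.81%.

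The semi-invariant TRA chains of unconventional T cells were rare in both. TRAV11 with TRAJ18, the pair of invariant natural killer T cells, was found in 11 WT (0.570%) and 6 EomesTG (0.680%) members. TRAV1 with TRAJ33, the pair of mucosal-associated invariant T cells, was found in 7 WT (0.363%, interval 0.146 to 0.746) and in 0 EomesTG members (interval 0 to 0.417). Those intervals overlapped. TRAV1 with any TRAJ was found in 17 and in 0. Without members that share a chain, the first pair was left in 0 WT and 0.246% of EomesTG members. That setting drops any cell whose TRA is in another barcode, and a semi-invariant TRA can recur in unrelated cells. It therefore cannot show whether the cells left out were of this kind.

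The RNA of the members was of like depth in the 2 libraries. Medians were 6066 UMIs and 1815 genes per cell in WT and 5694 UMIs and 1728 genes in EomesTG, with totals of 12897211 and 5183358 UMIs. Cells of larger clones were shallower (medians of 4804.5 and 3846 UMIs). CD8 T cell genes were present: Cd8a was detected in 86.3% of WT and 84.7% of EomesTG members and Cd3e in 99.3% and 98.8%, and Cd4 had 0 UMIs in both. Markers of other cells were not absent, and their summed levels differed by list. The hepatocyte list (9 of 9 genes detected in WT, 6 of 9 in EomesTG, with Ttr, Serpina1c and Fabp1 at 0) summed to 8.76 and 1.54 counts per 1000000 UMIs (CPM), the B and plasma cell list to 26.8 and 14.1 CPM, mostly Cd79b, and the antigen presentation list to 77.8 and 65.2 CPM. UMIs of the antigen presentation list lay in few cells, 4.09% of WT and 6.68% of EomesTG members. The myeloid list summed to 9.15 and 7.72 CPM, and the endothelial and stellate list, mostly Pecam1, to 30.2 and 28.6 CPM. The NK and innate lymphoid list summed to 28.5 and 21.0 CPM. Their part in the results was not tested.

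Levels of genes are given as CPM, from the UMIs summed over all members of a library, with an exact Poisson interval. The log2 ratio is that of EomesTG over WT, with an exact conditional binomial interval. In such sums fewer cells with a transcript and less RNA per cell cannot be told apart, so shares of cells with a UMI are given beside them, after each cell was thinned at random to 2000 UMIs. Genes with at least 50 UMIs over both groups were measured, and a gene counts as higher or lower from 1.5-fold.

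Eomes itself (chr9:118478212-118486132, GRCm38) was 1.51-fold higher in EomesTG members. Its level was 85.1 CPM (80.2 to 90.3) in WT and 128 CPM (119 to 139) in EomesTG, a log2 ratio of 0.59 (0.45 to 0.73). The alternatives gave 0.51 to 0.68, on both sides of 1.5-fold. At 2000 UMIs per cell 13.6% of WT and 19.7% of EomesTG members had an Eomes UMI. In clones of 2 or more cells the levels were 99.03 and 208 CPM, a log2 ratio of 1.07, and in single-cell clones of the spleen the log2 ratio was 0.62. The direction is that of the labels in each of these comparisons.

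Pdcd1 (chr1:94038305-94052553) was higher in EomesTG members. Its level was 15.9 CPM (13.8 to 18.2) in WT and 61.2 CPM (54.6 to 68.3) in EomesTG, a 3.85-fold difference with a log2 ratio of 1.94 (1.69 to 2.20). A Pdcd1 UMI was seen in 2.22% (1.60 to 2.99) of WT and 8.84% (7.03 to 10.9) of EomesTG members at 2000 UMIs per cell. In larger clones it was seen in 8.74% and 68.5% of cells, at 59.8 and 683 CPM. The ratio of the members was thus smaller than that of the larger clones, whose log2 ratio was 3.51 (3.29 to 3.74), and larger than in spleen single-cell clones, at 0.72 (0.38 to 1.06).

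Cxcr6 (chr9:123806475-123811760) was not higher in EomesTG members. Its level was 114 CPM in WT and 88.9 CPM in EomesTG, a log2 ratio of -0.35 (-0.51 to -0.20), which is under 1.5-fold. Without members that share a chain the log2 ratio was -0.59, and with clones defined by TRB alone -0.66, both past 1.5-fold. It was seen in 16.2% of WT and 13.4% of EomesTG members, and those intervals overlapped. In larger clones it was higher in EomesTG, with 253 and 496 CPM and a log2 ratio of 0.97.

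In EomesTG the level of Pdcd1 was higher in the members whose TRB was shared. The 812 EomesTG members with neither chain in any other liver barcode had 44.3 CPM of Pdcd1 (38.6 to 50.7) and held 213 of its 317 UMIs. The 49 with a shared TRB had 334 CPM (267 to 413). Of these 49, the 17 with the TRB of a clone of 2 or more cells had 512 CPM (381 to 674), against 683 CPM in the larger clones. Lag3 went the same way, with 47.5, 342 and 603 CPM, and so did Tox, with 57.9, 276 and 412 CPM. In WT the 1790 members with unshared chains had 16.1 CPM of Pdcd1 and the 44 with a shared TRB 15.9 CPM (5.15 to 37.0). The groups also differed in cell state, by the score described further below. Its experienced range held 36.2% of the unshared EomesTG members, 91.8% of the 49 and 100% of the 17. In WT it held 40.7% of the unshared members and 85.7% of those with a shared TRB. Chain sharing and cell state were not told apart. These levels by group were compared after the log2 ratio of Pdcd1 was seen to be 1.46 without members that share a chain.

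**Figure D3:**
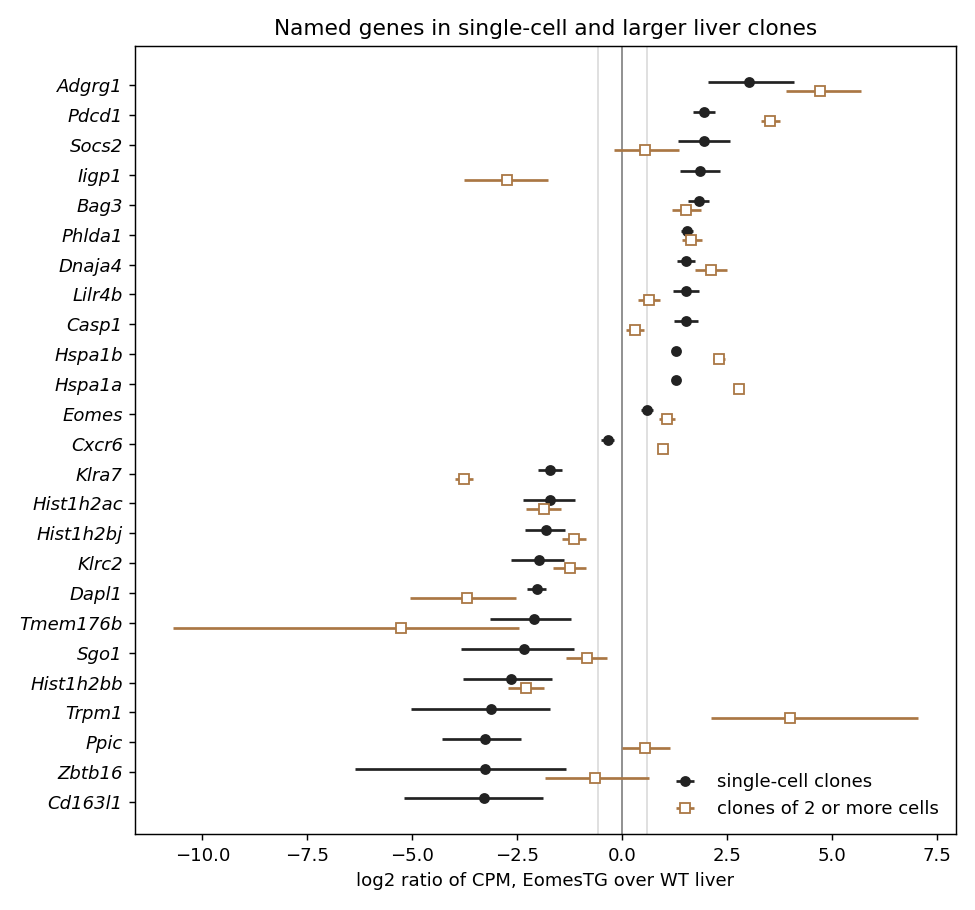
Log2 ratio of CPM, EomesTG over WT liver (x axis), of the genes named by the rule (y axis), with 95% intervals of counting error. Black points are single-cell clones and open brown squares clones of 2 or more cells, and the light lines mark 1.5-fold. Pdcd1 was higher in both, Iigp1 and Trpm1 lay on opposite sides, and Spdya and the larger clones of Cd163l1 are not drawn because 1 group had 0 UMIs.

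Of 9575 genes measured in the members, 294 (3.07%) were at least 1.5-fold higher and 411 (4.29%) at least 1.5-fold lower in EomesTG, and the median log2 ratio was -0.04. The larger clones of the same libraries differed more, with 14.4% of 9469 genes higher and 9.84% lower. Sums over larger clones weigh the largest clones most. Of 2372 EomesTG barcodes in larger clones 4 clones held 1277, and of 464 in WT 1 clone held 117. Cells of 1 clone are not independent, so the intervals given for larger clones do not cover differences between clones.

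The 12 genes highest in EomesTG members by the interval bound nearest to equality were Pdcd1, Spdya, Adgrg1, Bag3, Phlda1, Iigp1, Socs2, Dnaja4, Casp1, Hspa1a, Lilr4b and Hspa1b. Spdya encodes an activator of cyclin-dependent kinases. It had 89 UMIs in 75 EomesTG members and 0 UMIs in WT members, at least 73.8-fold higher when WT is set to 3 counts over the group. The 240 UMIs in EomesTG against 0 in WT spleen single-cell clones gave the same contrast. In the larger liver clones Spdya was at 5.89 CPM in EomesTG, below the 17.2 CPM of the members, and at 0 UMIs in WT.

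Adgrg1, an adhesion receptor of cytotoxic lymphocytes also known as GPR56, had 0.9304 CPM in WT and 7.52 CPM in EomesTG members, a log2 ratio of 3.02 (2.05 to 4.08). The interferon-induced GTPase Iigp1 had 4.88 and 17.6 CPM, and 38.5% of its EomesTG UMIs came from 10 cells. Socs2, a feedback inhibitor of cytokine signalling, had 2.87 and 11.0 CPM, with 59.6% of its EomesTG UMIs in 10 cells. Casp1, the inflammasome protease, had 14.7 and 42.3 CPM, and the receptor gene Lilr4b 13.0 and 37.4 CPM.

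The remaining named genes were mostly chaperone genes. Hspa1a and Hspb1 encode chaperones, and Hspa1b is a near-identical copy of Hspa1a. Hspa1a had 551 CPM in WT and 1336 CPM in EomesTG members, and 39.3% and 63.4% of cells had a UMI. Bag3 and Dnaja4, which encode co-chaperones, had log2 ratios of 1.82 and 1.52, and Phlda1 one of 1.54. Of the heat shock list 5 of 10 members were at least 1.5-fold higher and 0 lower (median log2 ratio 0.60). The same list gave 0.59 in naive-range and 0.60 in experienced-range members, so it was higher in both. In spleen single-cell clones the log2 ratio of Hspa1a was 6.04. With 1 library per group, handling of the pool and genotype cannot be told apart.

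The 12 genes lowest in EomesTG members were Ppic, Cd163l1, Dapl1, Trpm1, Hist1h2bb, Klra7, Klrc2, Hist1h2bj, Zbtb16, Tmem176b, Sgo1 and Hist1h2ac. Ppic, a cyclophilin, had 20.4 CPM (18.002 to 23.0) in WT and 2.12 CPM (1.06 to 3.80) in EomesTG members, and was seen in 174 WT and 11 EomesTG cells. Dapl1, a gene of naive and quiescent T cells, had 142 and 34.7 CPM, a log2 ratio of -2.03 (-2.26 to -1.81).

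Klra7 and Klrc2 encode NK cell receptors of the Ly49 and NKG2 families. Klra7 had 75.9 CPM in WT and 23.2 CPM in EomesTG, and Klrc2 19.2 and 4.82 CPM. Klra genes are near-identical copies, so reads can be assigned to the wrong member. Zbtb16, the transcription factor PLZF of innate-like T cells, had 48 UMIs in 30 WT cells and 2 UMIs in 2 EomesTG cells. Tmem176b, an ion channel gene of myeloid cells and some T cells, had 9.15 and 2.12 CPM, with 65.3% of its WT UMIs in 10 cells. The histone genes Hist1h2bb, Hist1h2bj and Hist1h2ac and Sgo1, which protects sister chromatids during division, had log2 ratios between -2.64 and -1.73.

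Among the 20 gene lists, inhibitory receptors and exhaustion had the most members higher in EomesTG. Of its 13 measured genes 7 were at least 1.5-fold higher and 1 lower. The median of the list was 0.59 (log2 ratio), against -0.04 over all genes. Besides Pdcd1, the receptor genes Lag3 (24.8 CPM in WT and 63.5 in EomesTG, log2 ratio 1.36) and Tigit (35.5 and 64.1 CPM, 0.85) were higher, and so was Tox, a transcription factor of exhausted cells (45.4 and 70.2 CPM, 0.63). Tox was under 1.5-fold without members that share a chain (0.35) and with clones by TRB alone (0.36). Cd160, an inhibitory or costimulatory receptor, had 159 and 117 CPM (log2 ratio -0.45, under 1.5-fold, but -0.65 without members that share a chain). Btla was the gene that was lower (-0.68, or -0.48 with clones by TRB alone). It was also under 1.5-fold without cells with UMIs of other cell types. In larger clones 12 of 13 were higher and 0 lower, with a median of 2.20. The median of the members was 0.28 without those that share a chain and 0.23 with clones defined by TRB alone.

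Genes of the naive state and of egress from tissue did not set the members apart. In the naive list 0 of 14 genes were higher and 1, Dapl1, was lower, with a median of -0.04, whereas in larger clones 8 of 12 were lower, with a median of -2.13. Il7r, the receptor of the survival cytokine IL-7, had 284 CPM in WT and 309 CPM in EomesTG members. In the egress and recirculation list 1 of 12 genes was lower, Gpr183 (110 and 55.9 CPM), with a median of -0.17 against -1.96 in larger clones. Klf2, which drives egress genes, had 2302 and 1757 CPM (log2 ratio -0.39).

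**Figure D4:**
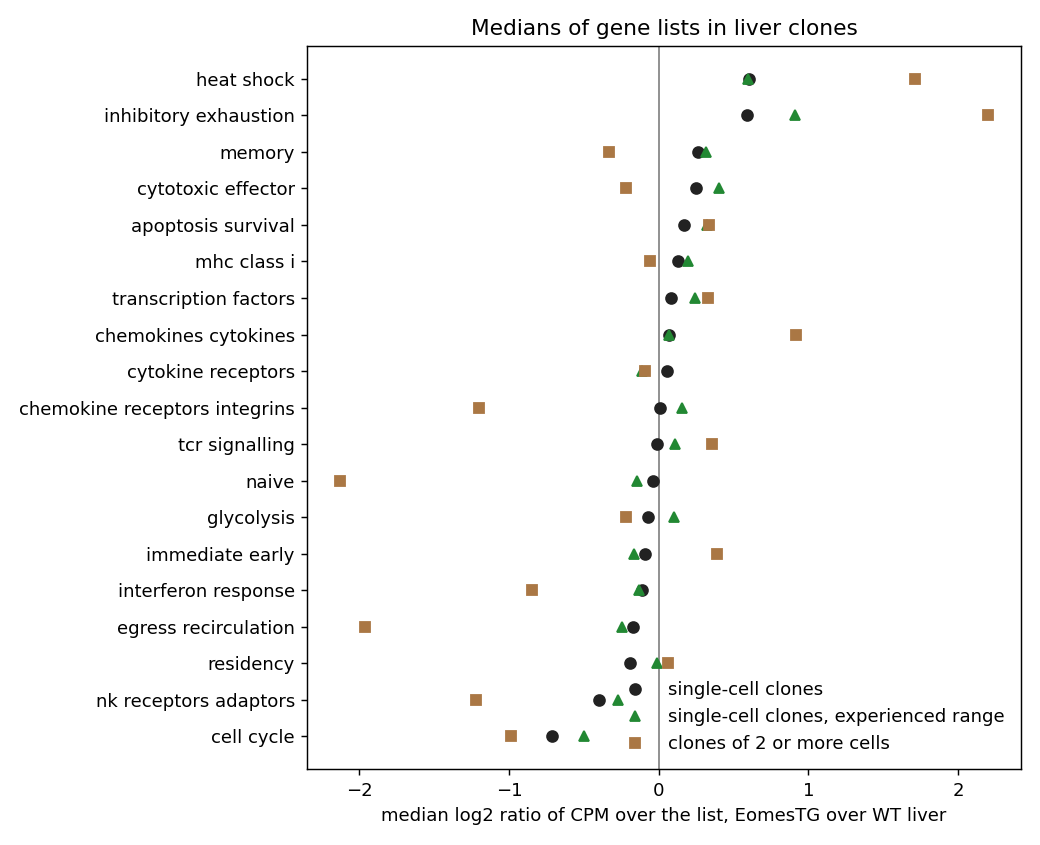
Median log2 ratio of CPM, EomesTG over WT liver (x axis), of each gene list (y axis) in single-cell clones (black circles), their experienced range (green triangles) and clones of 2 or more cells (brown squares). A list picked on these libraries is not drawn. The green triangles leave out the genes that define the range and genes not measured in it. In the naive list they rest on 7 genes, against 14 in all single-cell clones. The naive and egress lists lay near 0 in single-cell clones and near -2 in larger clones, and the inhibitory list at 0.59 and 2.20.

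Cell cycle genes were lower in EomesTG members. Of 14 genes 8 were at least 1.5-fold lower and 0 higher, with a median of -0.71 (-0.45 with each cell thinned to 2000 UMIs), and larger clones gave -0.99. Top2a, a topoisomerase of dividing cells, had 74.98 CPM in WT and 38.006 CPM in EomesTG, and Pclaf 101 and 49.97 CPM (log2 ratio -1.01, or -0.50 in cells thinned to 2000 UMIs). The UMIs came from few cells: of 883 EomesTG members 46 had Top2a and 38 Pclaf, and of 1930 WT members 178 and 126. Mki67 was seen in 3.54% (2.75 to 4.47) of WT and 2.21% (1.34 to 3.43) of EomesTG members, and those intervals overlapped.

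In the cytotoxic and effector list 2 of 15 genes were higher and 2 lower, with a median of 0.25, which was 0.01 without members that share a chain and -0.06 as a mean of per-cell CPM. The granzyme genes went different ways: Gzma had 305 CPM in WT and 706 CPM in EomesTG, Gzmk 55.5 and 134 CPM, and Gzmm 56.3 and 30.7 CPM. About 40% of the Gzma UMIs came from 10 cells in each library (41.2% in WT and 40.1% in EomesTG). Prf1, the pore-forming protein perforin, had 44.4 and 65.8 CPM, just under 1.5-fold. Among NK receptor and adaptor genes 6 of 16 were lower and 1 higher, with a median of -0.40 (-0.61 without members that share a chain and -0.73 with clones by TRB alone). Fcer1g, a signalling adaptor, had 134 and 70.8 CPM, and Klra6 26.2 and 9.07 CPM.

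The memory list had 3 of 14 genes higher and 0 lower (median 0.26, or 0.08 in thinned cells), among them Eomes and Ly6a (99.6 CPM in WT and 176 in EomesTG). The chemokine Ccl5 had 6101 and 7889 CPM. In the list of chemokines and cytokines 2 of 14 were higher, Ccl4 (267 and 523 CPM) and Ccl3 (47.1 and 84.7 CPM), with a median of 0.07. Without members that share a chain Ccl3 was under 1.5-fold (0.35), and with clones by TRB alone so were Ccl3 (0.32) and Ccl4 (0.49). In the residency list 1 of 13 was higher, Prdm1 (4.03 and 10.8 CPM), and 2 were lower, the integrin gene Itgae (19.5 and 9.07 CPM) and Zfp683, the factor Hobit (10.9 and 5.79 CPM), with a median of -0.19 (-0.35 without members that share a chain).

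Chemokine receptors and integrins had 2 of 17 higher and 1 lower (median 0.01), among them Cxcr5 with 8.68 and 18.5 CPM. Cytokine receptors had 0 of 18 higher and 1 lower (0.05), Il12rb2 (13.9 and 7.52 CPM). Transcription factors had 3 of 22 higher and 2 lower (0.08), with Ikzf2 (Helios) at 66.9 and 38.6 CPM and Myb at 30.8 and 18.7 CPM (log2 ratio -0.72, or -0.56 with clones by TRB alone). Apoptosis and survival had 1 of 14 higher (0.17), Pmaip1. Immediate early genes had 0 of 16 higher and 2 lower (-0.09), Fosb (-0.80) and Fos (-0.63, or -0.58 when centred on the median gene). Interferon response (16 genes, median -0.11), T cell receptor signalling (17 genes, -0.01), MHC class I (11 genes, 0.13) and glycolysis (14 genes, -0.07) had 0 genes past 1.5-fold in either direction. The shares of all genes were 3.07% and 4.29%, so counts of 1 or 2 in a list are near that background.

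The last list had been picked on these libraries as genes high in EomesTG liver, and so is no independent evidence. Of its 11 genes 4 were measured in the members (Spdya, Adgrg1, Cd200r2 and Cd200r1) and all 4 were higher (median log2 ratio 2.38, the same with Spdya at its lower bound). The median of those measured was 0.61 without members that share a chain, 0.57 with clones by TRB alone and 1.31 without barcodes with 2 TRB chains, and Adgrg1 had under 50 UMIs in all of these settings. Cd200r1 (0.81) was at 0.29 and 0.21 in the first and second of them, under 1.5-fold. Cd200r2, a receptor of the CD200R family, had 3.101 CPM in WT and 10.4 CPM in EomesTG members, against 0.360 and 225 CPM in larger clones. Its log2 ratio in the members was 1.75. Without members that share a chain it was 0.61, and with clones by TRB alone 0.57, under 1.5-fold. Lim2 had 1 UMI in WT and 17 in EomesTG members, and 1030 UMIs in the larger EomesTG clones.

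The members were then split by their own state, since a receptor seen once can belong to either kind of cell. Each cell was thinned to 2000 UMIs, and UMIs of 12 genes of antigen-experienced cells were subtracted from UMIs of 8 genes of naive cells. A difference of at least 2 was called the naive range, of at most -2 the experienced range, and the rest lay near the cut. These are ranges of a score, not cell types, and their own genes are not given as results. The 8 naive genes include Dapl1, which was lower in EomesTG over all members (log2 ratio -2.03). The 12 genes of experienced cells include Cxcr6 (-0.35). Their part in the shares that follow was not tested. In WT 35.5% of members (33.3 to 37.7) were in the naive range, and in EomesTG 38.5% (35.2 to 41.8). For the experienced range the shares were 42.5% (40.3 to 44.8) and 40.5% (37.2 to 43.8). Near the cut lay 22.0% and 21.0%. The intervals of the 2 genotypes overlapped in each range. With clones defined by TRB alone they did not: 36.5% of WT members (34.4 to 38.5) and 42.7% of EomesTG members (39.6 to 45.7) were then in the naive range, and 40.6% (38.5 to 42.7) and 34.8% (31.9 to 37.8) in the experienced range. Without members that share a chain the naive range lay apart as well, at 35.6% (33.4 to 37.9) and 41.6% (38.2 to 45.2). Another 37 WT and 23 EomesTG cells were too shallow to be placed. In larger clones 0 of 435 WT and 3 of 2227 EomesTG cells were in the naive range.

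Within the experienced range 367 of 8259 genes (4.44%) were higher and 393 (4.76%) lower in EomesTG. Pdcd1, Bag3, Lilr4b, Lag3 and Rgs16, which encodes a regulator of G protein signalling, were the 5 highest. Pdcd1 had 23.0 CPM in WT and 134.7 CPM in EomesTG, a log2 ratio of 2.55 (2.24 to 2.87), and Lag3 39.1 and 139.7 CPM (1.84). A Pdcd1 UMI was seen in 3.73% (2.53 to 5.28) of WT and 18.97% (14.98 to 23.5) of EomesTG cells of this range. At least 2 of the 4 inhibitory receptor genes Pdcd1, Lag3, Tigit and Havcr2 were seen in 2.73% and 18.1% of cells. Of the inhibitory list 9 of 13 were higher and 1 lower (median 0.91). Eomes had 86.8 and 171 CPM, a log2 ratio of 0.98 (0.77 to 1.18).

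The 5 lowest genes of the experienced range were Ppic, Tmem176b, its neighbour Tmem176a, Hist1h2bj and Klra6. Gzmk was seen in 14.8% of WT and 35.1% of EomesTG cells, Gzma in 16.3% and 25.9%, and the chemokine Ccl3 in 11.7% and 20.1%. Klra7 went the other way, with 15.5% and 6.03%. Experienced-range members still differed from larger clones: in the EomesTG experienced range of larger clones 68.7% of cells had a Pdcd1 UMI, 63.4% a Tox UMI and 31.3% a Cd200r2 UMI, against 18.97%, 20.1% and 5.17% of the members.

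**Figure D5:**
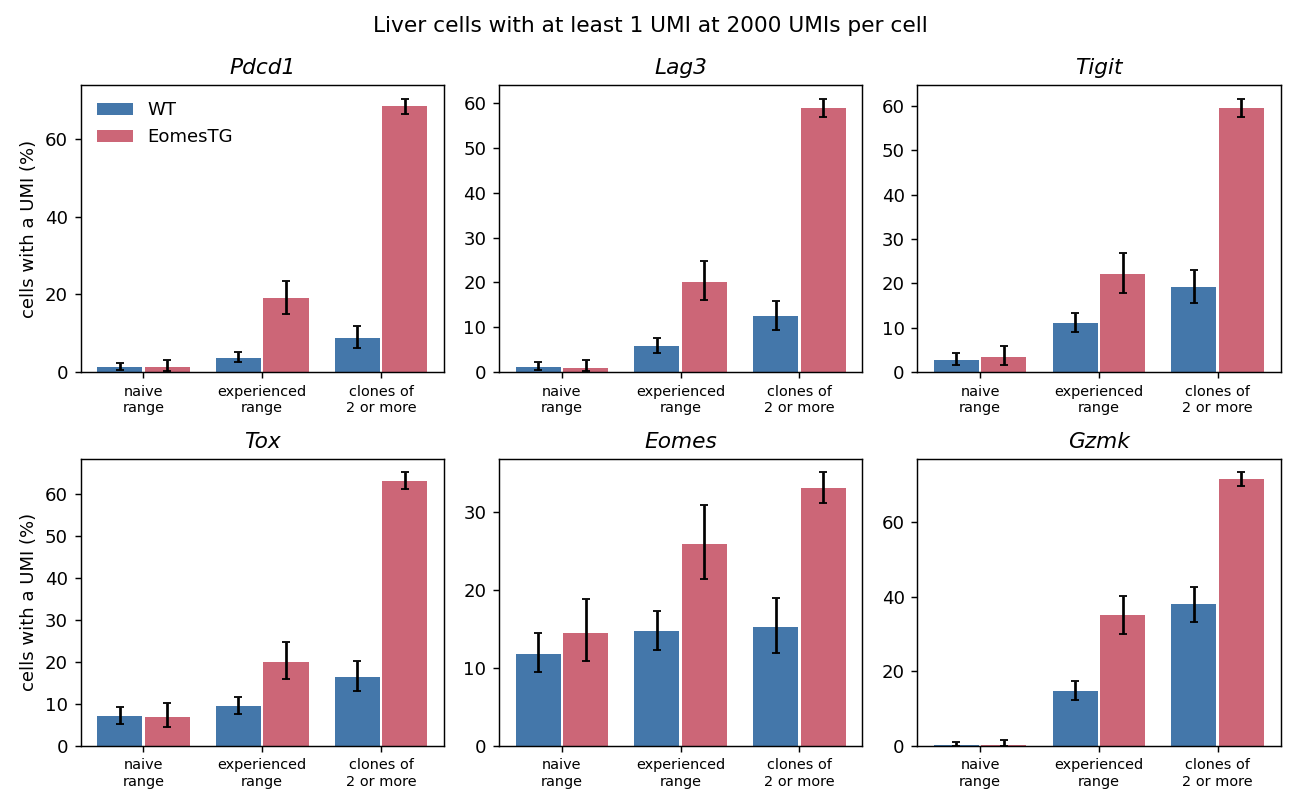
Share of liver cells (%, y axis, from 0, with its own scale in each panel) with at least 1 UMI of a gene at 2000 UMIs per cell, in the naive and experienced range of single-cell clones and in clones of 2 or more cells (x axis). Bars are WT (blue) and EomesTG (red) with 95% Clopper-Pearson intervals. Pdcd1 was at 1.19% and 1.21% in the naive range, 3.73% and 18.97% in the experienced range, and 8.74% and 68.5% in larger clones.

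In the naive range 216 of 7386 genes (2.92%) were higher and 500 (6.77%) lower in EomesTG. The log2 ratio of Pdcd1 was -0.85 (-1.90 to 0.08), from few UMIs. Of the inhibitory list 0 of 9 measured genes were higher and 4 lower (median -0.55). A Pdcd1 UMI was seen in 1.19% of WT and 1.21% of EomesTG cells, with median depths of 6133.5 and 5928 UMIs. These shares are those of a score range, not of naive cells alone, so they are no measured background of Pdcd1. The shares in the experienced range lay above them. Eomes in the naive range was 78.9 and 92.3 CPM, with a log2 ratio of 0.23 (-0.04 to 0.49). The 3 other random thinnings, which place some cells in another range, gave 0.41 to 0.48. The 5 highest genes were Hspb1, Bambi, Iigp1, Ldhb and Casp1. Bambi, a decoy receptor of the TGF-beta family, had 4.24 and 27.7 CPM, and Ldhb, a lactate dehydrogenase subunit, 4.68 and 24.2 CPM.

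Spdya was found in the naive range too, with a UMI in 5.14% (3.02 to 8.09) of EomesTG cells and 0 of 672 WT cells, which allows a share of up to 0.446%. Its share in the experienced range of EomesTG was 1.72% (0.635 to 3.71). Ly6a was seen in 5.36% of WT and 27.8% of EomesTG cells of the naive range, and in 17.3% and 21.3% of the experienced range. The lowest genes of the naive range were Ppic, Klrk1, Hist1h2ae, Uhrf1 and Hist1h2ap, and Klrk1, the NKG2D receptor gene, had 49 UMIs in WT and 1 in EomesTG. Ccl5, a chemokine made by memory cells, was seen in 45.2% of WT and 25.7% of EomesTG cells of this range, below the 87.8% and 92.0% of the experienced range, and the part of free RNA in these shares was not tested.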

How the data were processed

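Droplet libraries of RNA and of T cell receptors were made from sorted CD8 T cells with a 10x Genomics 5′ kit, per the labels' protocols. The authors deposited raw UMI counts per gene and barcode, already filtered to cells, and contig tables with counts of UMIs and reads per receptor contig. Cell Ranger and mm10 are named in the submitters' processing notes, and version 3.1.0 of the software in the matrix headers. Gene and segment positions are those of GENCODE M21 on GRCm38, the same build.

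Cells and clones were chosen as the report states, and UMIs were summed over the cells of a library and clone class. No doublet caller was run, and barcodes with 2 productive TRB chains were kept, with an alternative without them. With 1 library per group there is no test. Against 0 UMIs a fold was computed at 3 counts over the group, and for a share of 0 the limit is 3 counts of the total. Intervals cover counting error only. The ratios were tested on simulated data with independent counts per gene. That simulation left out the clustering of UMIs in few cells, so it cannot show whether the intervals are wide enough for it. Calculations used numpy 2.4.6, scipy 1.17.1 and pandas 2.3.3 under Python 3.11.15, and matplotlib 3.10.9 drew the plots.

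The cells, the 20 gene lists and the rules were chosen with earlier results of these data known. Eomes, Pdcd1 and Cxcr6 were always named, with the 12 highest and the 12 lowest genes (at least 1.5-fold, ordered by whichever interval bound lay closer to equality), 5 each way within a range, and up to 5 members of a list. Antigen receptor, mitochondrial, ribosomal protein and sex-linked genes, models named Gm plus digits or ending in Rik, and markers of other cells were not eligible. For receptor segments the 3 most used and the 3 with the largest difference each way could be named, and for shared TRB chains at most 6. Some genes and 1 shared chain that these rules select are not reported here.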

Additional observations from a re-analysis of the deposited data

Results flagged for a closer look

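For 2 genes the ratio of EomesTG over WT liver was past 1.5-fold in opposite directions in single-cell clones and in clones of 2 or more cells of the same libraries, with intervals on opposite sides of equality. The difference between the classes was not tested. Iigp1, an interferon-induced GTPase, had a log2 ratio of 1.85 in single-cell clones (4.88 CPM in WT and 17.6 CPM in EomesTG) and of -2.74 in larger clones (9.36 and 1.40 CPM). In the larger clones Iigp1 had under 50 UMIs over both groups, so it was not a measured gene there. Trpm1, a cation channel gene, had a log2 ratio of -3.13 in single-cell clones (6.75 CPM in WT and 0.772 CPM in EomesTG, from 62 and 4 cells) and of 3.99 in larger clones (0.720 and 11.4 CPM). The WT value of Trpm1 in larger clones came from few UMIs.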

How the results depend on the processing

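Results were recomputed under 20 alternatives, each where it bears on the result and the gene still had 50 UMIs. The clones by the CDR3 of both chains, whatever the V and J names, and 3 other random thinnings were chosen after the data were seen. Of 898 recomputed values 843 stayed within the interval of the value reported (within 1.5 times for counts), 55 moved and 0 reversed. Reversal was counted only for log2 ratios of at least 1.5-fold, so smaller values that changed sign were not counted. An example is the cytotoxic and effector median, 0.25 as reported and -0.02 with clones by TRB alone. For a list median the interval was set by the median half-width of the intervals of its genes. The 25 named genes with UMIs in both genotypes kept their direction wherever they were measured, and 23 stayed past 1.5-fold there, the exceptions being Eomes and Cxcr6. Adgrg1 and Zbtb16 had under 50 UMIs in several alternatives, among them the one without members that share a chain. Of 27 further genes described as higher or lower in the lists, 9 were under 1.5-fold in at least 1 alternative. The share intervals of the 2 genotypes lay apart in 2 of 15 alternatives for the naive range and in 1 for the experienced range. With clones defined by TRB alone, 78.6% of WT cells were single, the log2 ratio was 1.51 for Pdcd1 (2.11 in the experienced range) and -0.66 for Cxcr6, the inhibitory median was 0.23, and the naive and experienced ranges held 42.7% and 34.8% of EomesTG members. Other thinnings gave an experienced range of 39.99 to 41.7% in WT. By CDR3 alone, where cells are thinned anew, the experienced range held 40.1% of WT members, and Pdcd1 in the naive range, from few UMIs, gave -1.98 against -0.85. Without members that share a chain, 25.5% of EomesTG cells were single, the log2 ratio was 1.46 for Pdcd1 (2.07 in the experienced range) and -0.59 for Cxcr6, the inhibitory median was 0.28, and the experienced range held 40.2% of WT and 36.2% of EomesTG members. Pdcd1 gave 2.19 in the experienced range without barcodes with 2 TRB chains, and over all members 2.25 without the deepest cells, 2.24 in cells thinned to 2000 UMIs and 2.36 as a mean of per-cell CPM. Asking for 200 UMIs per gene, fewer genes were measured and 81 were higher and 124 lower. At 1000 UMIs per cell the naive range held 24.8% of WT and 26.1% of EomesTG members and the experienced range 34.3% and 34.2%. At a difference of 3 UMIs the naive range held 28.4% and 29.4%, and the experienced range 35.4% and 35.8%. The causes were not tested. Centred on the median gene (-0.04), 357 genes were higher and 361 lower.

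No paired analysis was possible because each genotype and tissue is 1 library with no replicate number. Depth limits genes under 50 UMIs, which were not measured, and with 1 library per group the spread between mice is unknown.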

Other observations

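Transcripts of the gamma chain constant genes were present in cells with both TRA and TRB. The list of gamma delta T cell genes (5 of 7 found in the matrices, with Sox13 at 0 in EomesTG) summed to 33.3 CPM in WT and 47.1 CPM in EomesTG single-cell clones, and to 51.9 and 311 CPM in larger clones. At least 2 UMIs of the list were seen in 5.75% of WT and 5.55% of EomesTG single-cell clones, and in 8.77% and 35.0% of the cells of larger clones.

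A few genes had opposite directions in the 2 organs. The immediate early gene Fos had a log2 ratio of EomesTG over WT of -0.63 in liver and 1.81 in spleen single-cell clones, and Fosb of -0.80 and 1.95. Gzma, which was higher in EomesTG liver members (1.21), was lower in spleen single-cell clones (-1.17), and Socs2 gave 1.94 and -0.86. These differences between organs were not tested.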
